A study of Mus musculus with 36 samples.

Results

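The comparison described here set 3 left ventricles of CUG960 mice that received an AAV9 vector for MBNL2 against 3 left ventricles of CUG960 mice that kept expressing the repeat RNA without any vector, 6 of the 36 RNA-seq libraries of the study. The 6 libraries were chosen by their labels alone (ventricle, on dox with 3XMYC-MBNL2, and ventricle, on dox). All mice had the genotype TREDT960I (Hom)/MHCrtTA (Hem): 1 transgene holds a long interrupted CTG repeat in the setting of human DMPK behind a promoter that answers to tetracycline, and the other drives the dox-dependent activator rtTA from the cardiomyocyte-specific α-MHC promoter. The CUG960 animals on dox received it from postnatal day 1. +dox mice stayed on dox with no AAV, and MBNL2 mice stayed on dox and were given AAV9-3XMYC-MBNL2, in which the heart-specific human TNNT2 promoter drives tagged human MBNL2, through the tail vein at 9 weeks of age. All hearts were collected at 21 weeks, 12 weeks after delivery. For reference, the 3 ventricles of –dox mice (the same transgenes, never given dox), the 3 ventricles of MBNL1 mice (on dox, a vector for tagged human MBNL1) and the atria of the +dox and MBNL2 mice were also used. Since the +dox mice had no vector, effects of the AAV itself and of MBNL2 cannot be told apart in these libraries.

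MBNL proteins are RNA-binding splicing regulators that set the adult splicing pattern of heart and skeletal muscle. In myotonic dystrophy type 1, RNA with an expanded CUG repeat collects in nuclear foci and binds MBNL proteins, so that MBNL targets return to fetal splicing, and the heart develops conduction defects and arrhythmia. MBNL2 is the family member best known from brain, and it binds the same kind of RNA motif as MBNL1.

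The totals of the expected counts were 95.6, 97.1 and 69.5 M in +dox and 74.5, 71.7 and 69.0 M in MBNL2 ventricles, within the 55.0 to 97.1 M of all 36 libraries. Replicate 3 of each group belongs to a second set of library numbers and, by its Xist and Y-linked counts, is the only female, so that library set and sex were balanced between the groups. No pair of replicates agreed within sampling noise. The summed expression of the ventricular markers Myl2, Myl3, Irx4, Myh6, Tnnt2 and Actn2 was between 38500 and 49700 CPM, and that of 6 atrial markers between 163 and 477 CPM, with no separation of the groups in either. 1 +dox library stood apart: replicate 3 had the highest interferon-induced expression of the 6, described with those genes.

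Ckmt2, Coq8a, Cdnf, Clcn1 and Kcnv2 were among the genes with higher expression in MBNL2 than in +dox ventricles, and Pttg1, Mcm2 and the potassium channel gene Kcna4 among those with lower expression. Of 19231 genes tested, 292 (1.52%) were called between MBNL2 and +dox ventricles, by edgeR's quasi-likelihood test, which required a Benjamini-Hochberg adjusted p under 0.05 together with a 1.5-fold difference. Of these, 148 (0.77%) were higher and 144 (0.749%) lower in MBNL2. In 5349 genes (27.8%) the 3 MBNL2 libraries did not overlap with the 3 +dox libraries, and 224 of the called genes met that condition with a mean of at least 1 CPM. The count rested in part on single libraries. It was 105 without MBNL2 replicate 1 and 151 (48 higher and 103 lower, 120 of them shared) without +dox replicate 3. CPM stands for the expected count of a gene relative to the library total scaled by its TMM factor, and fold changes are on that scale.

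**Figure D1:**
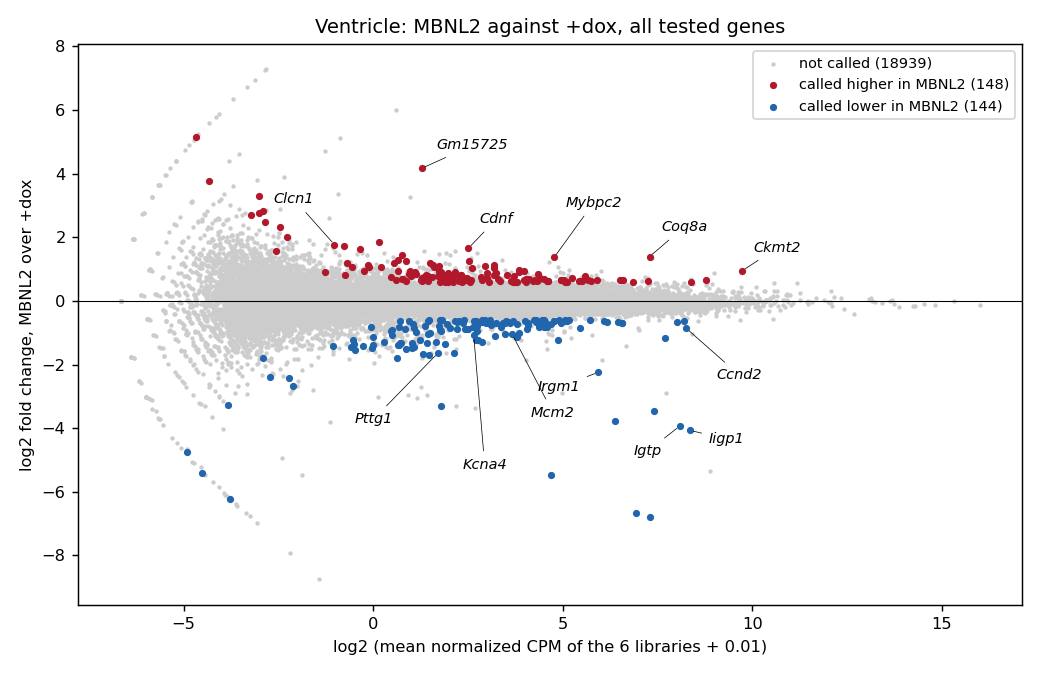
Each point is 1 of the 19231 tested genes, with the log2 of the mean normalized CPM over the 6 ventricular libraries (plus 0.01) on the x axis and the log2 fold change of MBNL2 over +dox on the y axis. The 148 genes called higher and the 144 called lower are coloured, and Ckmt2 and Coq8a lie to the right of most other called rises.

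Of the mouse genes Mbnl1, Mbnl2, Mbnl3 and Dmpk 0 were called. Mbnl2 was at 358, 352 and 375 CPM in +dox and at 408, 327 and 372 CPM in MBNL2 ventricles, with overlapping groups and a log2 difference of 0.03 ± 0.09 (SE, adjusted p = 0.898). In length-scaled TPM the same gene was at 99.0, 93.4 and 108 in +dox and at 174, 127 and 152 in MBNL2, every MBNL2 library above every +dox library. The scales differ by the effective length assigned to Mbnl2, with a log2 shift of -0.41 described with the effective lengths, and by a general offset of TPM, whose median log2 ratio over 8413 genes was 0.11. Coverage of the human MBNL2 cDNA was not analysed here, and its part in the Mbnl2 values was not tested. Mbnl1 had a log2 difference of -0.23 (adjusted p = 0.102), Mbnl3 was near 0.4 CPM in all but 1 library with a difference of -0.11 (adjusted p = 0.942), and Dmpk, the gene whose repeat causes the disease, was at 583, 644 and 504 against 573, 632 and 609 CPM (0.07, adjusted p = 0.718). Of 17 tested MBNL, CELF, RBFOX and other muscle splicing regulators, 0 were called and their median log2 fold change was 0.01, beside -0.0007 for all tested genes.

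Both Ckmt2 and Coq8a, genes of energy metabolism, rose. Ckmt2 (chr13:91853387-91876885, minus strand, GRCm38) encodes the sarcomeric mitochondrial creatine kinase, which passes phosphate energy from mitochondria to myofibrils. Its level was 594, 560 and 595 CPM in +dox and 1150, 1130 and 1090 CPM in MBNL2 ventricles, where –dox ventricles had 1970, 1910 and 1790 CPM. Every MBNL2 library lay above every +dox library and below every –dox library. Ckmt2 was 1.93-fold higher in MBNL2 than in +dox (log2 0.95 ± 0.11, adjusted p = 2.08e-05) and remained below –dox by the direct test (log2 -0.75, adjusted p = 4.57e-05). Coq8a, a kinase-like protein needed for coenzyme Q synthesis (chr1:180165238-180199602), was at 112, 82.3 and 65.2 CPM in +dox, at 269, 218 and 194 CPM in MBNL2 and at 669, 609 and 585 CPM in –dox. Its groups were in the same order without overlap, with a log2 fold change of 1.39 ± 0.18 over +dox (adjusted p = 6.84e-05) and of -1.45 against –dox (adjusted p = 5.24e-06). Exons of Coq8a overlap Cdc42bpa on the opposite strand, which had a mean of 88.49 CPM, and the strand setting of the counting is not given in the sources used here.

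Cdnf encodes a secreted protein of the endoplasmic reticulum that protects neurons and cardiomyocytes under ER stress (chr2:3513030-3526376). It was at 2.76, 2.51 and 2.99 CPM in +dox, at 11.5, 7.28 and 7.2 CPM in MBNL2, at 37.2, 25 and 21.5 CPM in MBNL1 and at 39.1, 37 and 30.6 CPM in –dox ventricles. Every MBNL2 library thus exceeded the +dox libraries and was lower than each MBNL1 and –dox library. Cdnf was 3.15-fold higher in MBNL2 than in +dox (log2 1.66 ± 0.23, adjusted p = 0.000149) and lower than in –dox (log2 -2.04, adjusted p = 7.52e-07). The calls of Ckmt2, Coq8a and Cdnf were kept in each of 15 alternative analyses, leaving out any of the 6 libraries included. Cdnf was the only call of 14 tested ER chaperone genes, beside 1.52% of all genes, and the median of that list was -0.13.

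**Figure D2:**
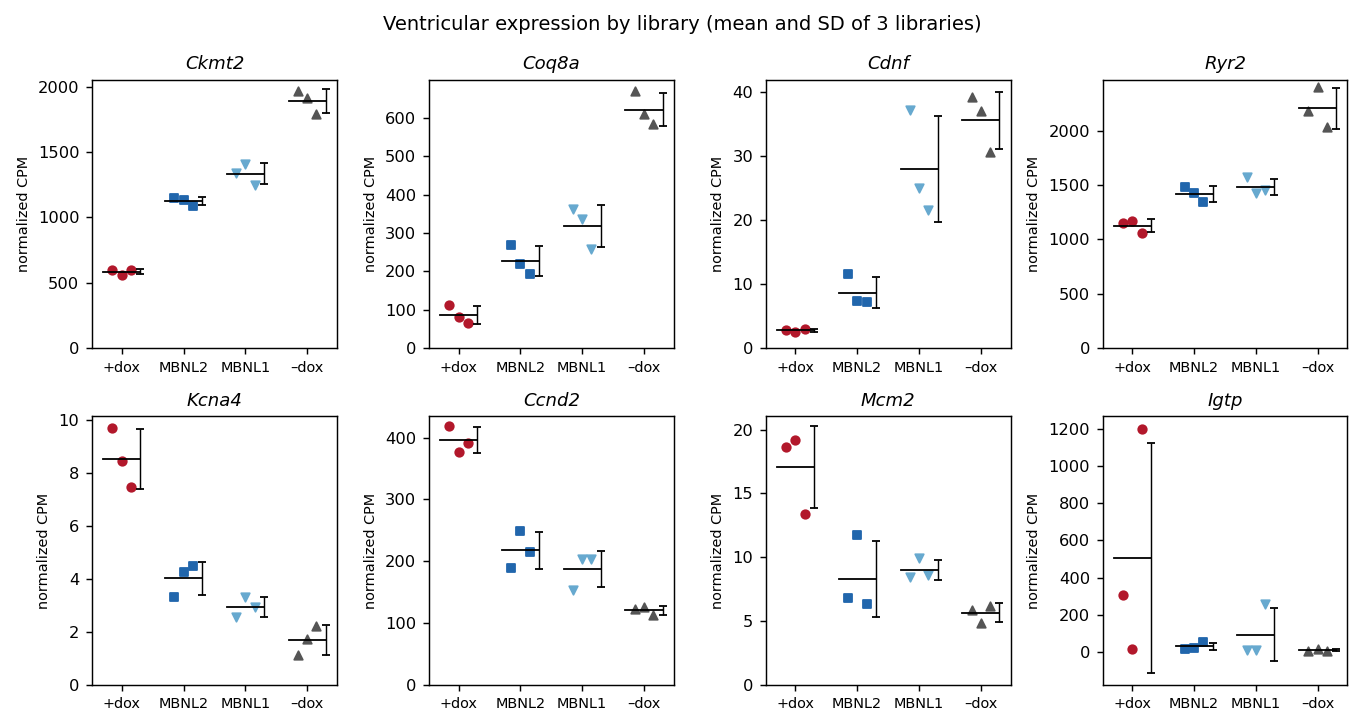
Each panel shows the normalized CPM of 1 gene on a linear axis in the 3 ventricular libraries of each cohort (points), with the mean (line) and SD (bar). For Ckmt2, Coq8a, Cdnf, Ryr2, Kcna4 and Ccnd2 the MBNL2 libraries lie between those of +dox and –dox, while the Igtp panel shows +dox libraries at 308, 15.9 and 1200 CPM.

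The other leading rises were of lower expression. Mybpc2, the fast skeletal isoform of myosin-binding protein C, was at 22.2, 18.4 and 5.11 CPM in +dox and at 55.8, 39.5 and 23.1 CPM in MBNL2. The lowest MBNL2 library was just above the highest +dox library, and the call (log2 1.37, adjusted p = 0.0217) was lost in 4 of 15 alternatives, among them the fits without +dox replicate 3 and without MBNL2 replicate 1. Sbk2, a heart-enriched kinase gene, was at 3.16, 4.18 and 2.87 CPM in +dox and at 8.9, 4.96 and 10.8 CPM in MBNL2 (log2 1.26, adjusted p = 0.0012). Capn3, the calpain mutated in a limb-girdle muscular dystrophy, was at 1.78, 2.19 and 1.14 CPM against 5.36, 3.83 and 2.66 CPM (log2 1.21, adjusted p = 0.00148), and its exons overlap Ganc on the same strand. In both genes the groups did not overlap. Mfsd4b1 (log2 1.3), Cdh22, a cadherin (1.45), Dbh, the enzyme that makes noradrenaline (1.27), and Col11a2, a fibrillar collagen (1.18), completed the 10 largest rises without overlap, together with the transcribed processed pseudogene Gm15725 (4.16). The calls of Cdh22 and Dbh were lost in 7 of 15 alternatives, Col11a2 in 6, Gm15725 in 4, Sbk2 and Capn3 in 2 and Mfsd4b1 in 1. Gm15725 had 0, 0.722 and 0 CPM in +dox and 3.21, 5.43 and 5.13 CPM in MBNL2, overlaps Lrrc58 on the same strand and can share its reads, so its values are uncertain.

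**Figure D3:**
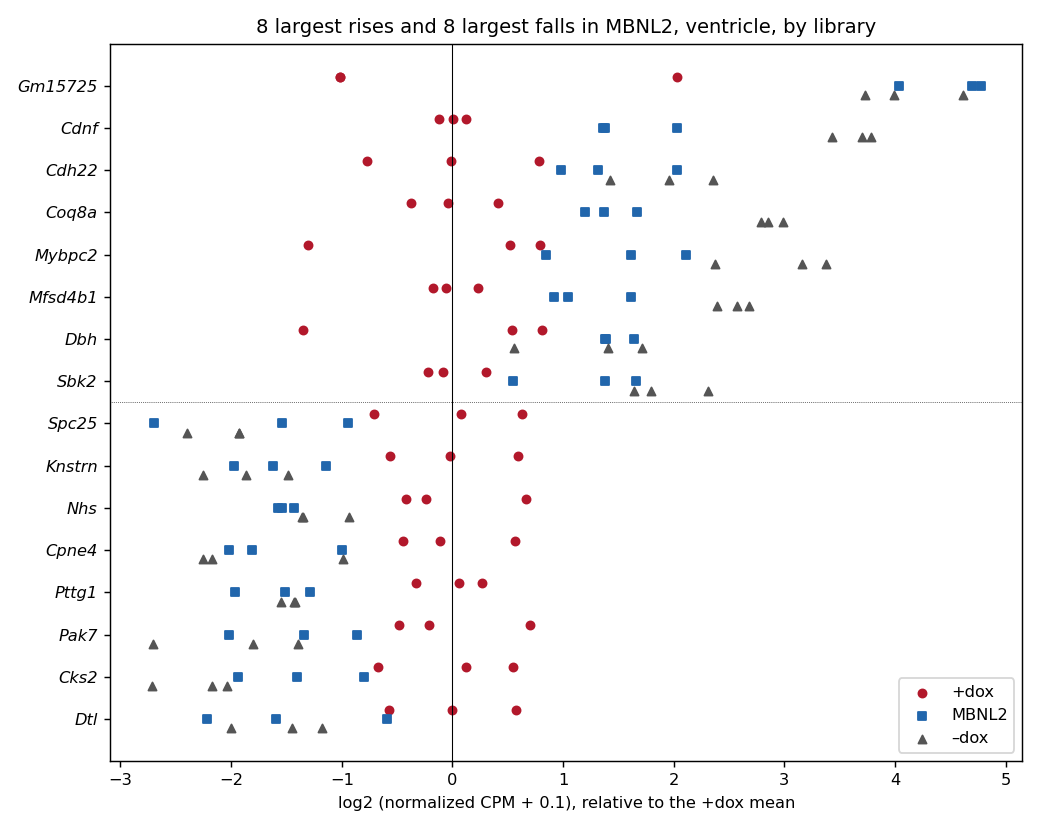
Points are single ventricular libraries, with the log2 of normalized CPM + 0.1 relative to the +dox mean on the x axis, for the 8 largest rises (above the dotted line) and the 8 largest falls (below it). By the rule that chose these genes the MBNL2 and +dox points do not overlap, and the –dox libraries of Cdnf, Coq8a, Mybpc2 and Mfsd4b1 lie further from +dox than those of MBNL2.

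Among potassium, pacemaker and chloride channel genes 3 of 23 were called, 2 higher and 1 lower, beside 1.52% of all genes. Kcna4 encodes Kv1.4, the slowly recovering channel of the transient outward current that is typical of the immature heart. It was at 9.71, 8.45 and 7.46 CPM in +dox and at 3.32, 4.26 and 4.49 CPM in MBNL2, where –dox ventricles had 1.12, 1.72 and 2.23 CPM. The 3 groups did not overlap, and Kcna4 fell by 1.09 ± 0.17 on the log2 scale (adjusted p = 0.0004) while it stayed higher than in –dox (log2 1.25, adjusted p = 2.49e-05). Kcnv2, a modifier subunit of Kv2 channels, was at 3.24, 4.41 and 7.23 CPM in +dox, 10.5, 11.6 and 9.76 CPM in MBNL2 and 37.4, 27.8 and 32.3 CPM in –dox (log2 1.11 ± 0.25 over +dox, adjusted p = 0.00961). Clcn1, the chloride channel whose missplicing causes myotonia in skeletal muscle, was at 0.273, 0.203 and 0.169 CPM in +dox, 0.574, 0.594 and 1.08 CPM in MBNL2 and 2.65, 2.58 and 3.52 CPM in –dox (log2 1.77 ± 0.29 over +dox, adjusted p = 0.000522). Both genes had non-overlapping groups in the order +dox, MBNL2, –dox, at the low levels given. Exons of Clcn1 overlap Fam131b on the opposite strand, which had a mean of 0.81 CPM, so the low Clcn1 values are uncertain. The call of Clcn1 was lost in 2 of 15 alternatives and that of Kcnv2 in 3. The median log2 fold change of the 23 genes was 0.06.

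Of 14 sodium and calcium entry channel genes, 0 were called. Their log2 fold changes ran from -0.28 to 0.86 with a median of 0.15, and in 4 of the 14 the groups did not overlap, a share near the 27.8% of all genes. None of 11 genes of gap junctions and the intercalated disc was called. Jup, the junctional plakoglobin, was at 236, 221 and 180 against 286, 297 and 296 CPM (log2 0.46, adjusted p = 0.00304), Gja1, which encodes connexin 43, had a log2 difference of -0.21 (adjusted p = 0.277) and Gja5, connexin 40, one of 0.41 (adjusted p = 0.281). The pacemaker channel gene Hcn4 varied from 9.17 to 37.3 CPM within +dox alone.

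Of the calcium release and uptake genes 0 of 21 were called, and of the adult sarcomere genes 0 of 18. Log2 fold changes ran from -0.39 to 0.92 in the first list and from -0.56 to 0.44 in the other. Ryr2, the calcium release channel of the sarcoplasmic reticulum, was at 1150, 1170 and 1060 CPM in +dox, 1480, 1430 and 1340 CPM in MBNL2 and 2180, 2400 and 2030 CPM in –dox. The 3 groups were in that order without overlap, with a log2 difference of 0.33 ± 0.07 over +dox (adjusted p = 0.00501) and of -0.64 against –dox (adjusted p = 3.8e-07). Asph, whose transcripts also encode junctin and junctate of the calcium release complex, was at 498, 488 and 472 CPM in +dox, 365, 375 and 372 CPM in MBNL2 and 253, 285 and 273 CPM in –dox (log2 -0.39 ± 0.09, adjusted p = 0.00625). Nebl, a Z-disc protein of the nebulin family, was at 745, 743 and 787 against 513, 559 and 577 CPM (log2 -0.46, adjusted p = 0.00285). For these 3 genes all libraries of MBNL2 lay on 1 side of all +dox libraries. Camk2b and Myom2 also passed the test below the fold (log2 0.55 and -0.56, both adjusted p = 0.0373).

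Of 14 fetal and hypertrophy genes 0 were called. Their median was 0.30, with 13 of 14 positive and 1 non-overlapping. Nppa, the atrial natriuretic peptide, was at 170, 99.7 and 51.3 CPM in +dox and 246, 115 and 138 CPM in MBNL2 (adjusted p = 0.502), and Myh7, the fetal myosin heavy chain of the mouse ventricle, was at 1990, 1340 and 976 against 2120, 1820 and 1380 CPM (adjusted p = 0.38). Mybpc2 was the only call among 10 tested fast skeletal genes, beside 1.52% of all genes. The study itself singled out the expression of 8 genes from these libraries, which is no independent evidence. Of these, 2 were called higher (Ckmt2 and Cdnf) and 1 lower (Kcna4), beside 0.77% and 0.749% of all genes. Another 3 passed the test below the fold. In 7 of the 8 the groups did not overlap, beside 27.8% of all genes.

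In the list of fatty acid use and pyruvate dehydrogenase kinases 0 of 25 were called against +dox (median 0.14). The direct comparison called 5 of the 25 lower in MBNL2 than in –dox ventricles, beside 1.34% of all genes. Pdk4, which restrains glucose oxidation, showed the widest range: it was at 101, 122 and 54.1 CPM in +dox, 374, 150 and 185 CPM in MBNL2 and 1190, 621 and 555 CPM in –dox. The MBNL2 libraries lay between the other groups, but the rise over +dox did not pass the test (log2 1.36 ± 0.49, adjusted p = 0.0916), whereas the gap to –dox did (log2 -1.74, adjusted p = 0.0232). Hadhb, of mitochondrial beta-oxidation, Acot1, a cytosolic acyl-CoA thioesterase, and Lpl were also among these 5. Lpl, the lipase that frees fatty acids from lipoproteins, was at 2640, 2800 and 3340 CPM in +dox, 2710, 2860 and 2600 CPM in MBNL2 and 4340, 3940 and 3980 CPM in –dox (log2 -0.59 against –dox, adjusted p = 6.9e-06). Ckmt2 was the only call of 17 genes of glucose use and creatine kinases, beside 1.52% of all genes. Of 23 nuclear-encoded respiratory chain genes 0 were called (median -0.06).

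Among falls without overlap between the groups, genes of DNA replication and chromosome segregation led. Pttg1, or securin, which holds sister chromatids together until anaphase, was at 5.88, 5.07 and 3.85 CPM in +dox and 1.64, 1.93 and 1.17 CPM in MBNL2, where –dox had 1.75, 1.74 and 1.59 CPM. The MBNL2 libraries lay below all +dox libraries and around the –dox level, and Pttg1 fell by 1.64 ± 0.23 on the log2 scale (adjusted p = 9.04e-05). Among the largest falls without overlap, Pttg1, Spc25, Knstrn and Zwilch act at the kinetochore or in chromatid separation, Cks2 binds cyclin-dependent kinases, and Dtl targets the replication licensing factor Cdt1. Their log2 fold changes were -1.64, -1.79, -1.69, -1.38, -1.47 and -1.46. Nhs (-1.67), Cpne4 (-1.64) and Pak7 (-1.52) have no such role known here. The calls of Pttg1, Knstrn and Nhs were kept in each of 15 alternatives. Those of Spc25 and Cpne4 were lost in 5 of the 15, and those of Cks2, Dtl, Zwilch and Pak7 in 6.

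Of 19 tested genes of a cell cycle list, 3 were called lower and 0 higher, with all 19 below 0 and a median of -0.74. The groups did not overlap in 4 of the 19, beside 27.8% of all genes, and 0.749% of all genes were called lower. Mcm2 and Mcm5, subunits of the replicative helicase, were called with Rrm2, which makes deoxyribonucleotides. Mcm2 was at 18.6, 19.2 and 13.4 CPM in +dox and 6.83, 11.7 and 6.35 CPM in MBNL2 (log2 -1.04 ± 0.18, adjusted p = 0.000726), Mcm5 at 13.7, 11.2 and 7.57 against 5.46, 9.06 and 4.51 CPM (log2 -0.77, adjusted p = 0.0427), and Rrm2 at 14.2, 8.99 and 5.16 against 2.87, 6.43 and 2.94 CPM (log2 -1.22, adjusted p = 0.0487). The groups of Mcm2 did not overlap, while MBNL2 replicate 2 reached into the +dox range for Mcm5 and Rrm2, whose calls were each lost in 7 of 15 alternatives. Pcna, the replication clamp, passed the test below the fold (log2 -0.39, adjusted p = 0.00135). The proliferation marker Mki67 was at 20.2, 12.7 and 10.9 CPM in +dox and 11.1, 15.1 and 5.56 CPM in MBNL2 with overlapping groups (adjusted p = 0.627), and the mitotic cyclin gene Ccnb1 did not pass either (log2 -1.3, adjusted p = 0.248). Summed over the list, the 3 +dox ventricles had 203, 160 and 131 CPM, the MBNL2 ventricles 102, 133 and 85.3 CPM and the –dox ventricles 102, 84.6 and 111 CPM. In this sum MBNL2 replicate 2 was just above the lowest +dox library. In ventricle tissue, fewer dividing cells and less of these RNAs per cell cannot be told apart.

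Other genes of cell division among the 144 falls were chosen after their values were seen, so that their direction was fixed by the choice. They included E2f1, the transcription factor of S-phase genes (7.22, 5.51 and 3.19 against 1.89, 3.28 and 0.989 CPM, adjusted p = 0.0441), and Mcm7 (19.2, 18.8 and 14.2 against 10, 11.7 and 9.59 CPM, log2 -0.74). For E2f1, MBNL2 replicate 2 was just above +dox replicate 3, so its groups overlapped. Also chosen after the values were seen, Ccnd2, the cyclin D2 that drives entry into the cycle, was at 419, 377 and 392 CPM in +dox, 189, 249 and 215 CPM in MBNL2 and 122, 126 and 113 CPM in –dox. Its 3 groups did not overlap, and it fell by 0.86 ± 0.14 on the log2 scale (adjusted p = 0.000686).

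Promoters of these genes are shown because E2F factors drive many S-phase genes through a short GC-rich motif. In the 250 bases before to 50 bases after each RefSeq gene start (GRCm38.p6), the 8-letter words TTTCCCGC, TTTCGCGC, TTTGCCGC and TTTGGCGC were searched on both strands, and overlapping matches were allowed. At least 1 word was found in 744 of 32851 promoters (2.26%), and in 4 of the 17 cell cycle list genes with a promoter in the table. The 250 bases before the start are printed for Mcm5 (chr8:75109259-75109508, plus strand), Dtl (chr1:191575545-191575794, minus strand) and Mcm2 (chr6:88898781-88899030, minus strand), 5′ to 3′ along the gene, with matches in capitals. Mcm5 holds a pair of overlapping matches and Dtl 1, next to its start, while none of these words is in the Mcm2 window. A match is a description of the letters and not a bound site.
Mcm5: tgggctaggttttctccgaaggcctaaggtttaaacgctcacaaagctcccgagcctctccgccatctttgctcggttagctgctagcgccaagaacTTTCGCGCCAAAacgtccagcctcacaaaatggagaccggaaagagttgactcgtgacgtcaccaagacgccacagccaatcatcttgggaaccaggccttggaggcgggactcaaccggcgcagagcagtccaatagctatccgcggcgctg
Dtl: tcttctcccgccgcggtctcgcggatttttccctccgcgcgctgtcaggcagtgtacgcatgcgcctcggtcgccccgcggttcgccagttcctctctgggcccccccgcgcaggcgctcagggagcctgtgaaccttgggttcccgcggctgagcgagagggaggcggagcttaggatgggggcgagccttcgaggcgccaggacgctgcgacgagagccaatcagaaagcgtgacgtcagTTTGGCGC
Mcm2: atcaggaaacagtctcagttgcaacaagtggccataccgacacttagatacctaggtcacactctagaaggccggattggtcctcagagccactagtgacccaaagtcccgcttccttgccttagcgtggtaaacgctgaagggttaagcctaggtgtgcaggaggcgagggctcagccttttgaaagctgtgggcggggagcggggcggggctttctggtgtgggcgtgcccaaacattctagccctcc

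Of the interferon-induced genes 4 were called lower, with falls larger than those of the cell division genes, but the groups overlapped in each. Iigp1, an interferon-inducible GTPase that attacks vacuoles of parasites, was at 288, 11 and 1550 CPM in +dox and 28.7, 35.2 and 46.5 CPM in MBNL2. Igtp, of the same family, was at 308, 15.9 and 1200 CPM in +dox and 19.8, 24.2 and 55.5 CPM in MBNL2. In both genes +dox replicates 1 and 3 were far above, and +dox replicate 2 below, all MBNL2 libraries, so the groups overlapped. Iigp1 and Igtp (log2 -4.07 and -3.94, adjusted p = 0.0445 and 0.0418), Gbp10 (-3.79, adjusted p = 0.0159) and Irgm1 (-2.25, adjusted p = 0.0363) were called lower. These were 4 of 41 tested interferon-induced genes, beside 0.749% of all genes. Of the 41, 0 had non-overlapping groups, beside 27.8% of all genes. The count called lower was 0 without +dox replicate 3 and 8 without +dox replicate 2, and it was also 0 without any 1 of the 3 MBNL2 libraries. Exons of Igtp overlap Irgm2 and those of Gbp10 overlap Gm43302 on the same strand, so reads can be split between them. The sum over the list was 1590, 300 and 5880 CPM in +dox, 605, 606 and 613 CPM in MBNL2 and 304, 456 and 292 CPM in –dox. The 3 MBNL2 libraries lay within the range of the +dox libraries, and +dox replicate 2 was at the level of the –dox libraries. The sum of the T cell markers (0 of 7 called) was 1.72, 1.34 and 3.99 CPM in +dox and 1.86, 2.02 and 2.42 CPM in MBNL2, highest in the same +dox library, and its part in the result was not tested.

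Other interferon-induced genes had positive log2 fold changes, 15 of the 41 in all. Irf7, the regulator of antiviral interferon, was at 5.51, 3.1 and 9.99 CPM in +dox, 21.2, 19.5 and 4.05 CPM in MBNL2 and 4.16, 3.13 and 3.39 CPM in –dox. Oas2, a sensor of double-stranded RNA, was at 3.25, 2.23 and 4.91 CPM in +dox, 13.6, 12.5 and 3.5 CPM in MBNL2 and 5.28, 3.89 and 3.96 CPM in –dox. In both, MBNL2 replicates 1 and 2 were above all other libraries named and replicate 3 was not. Neither passed against +dox (adjusted p = 0.117 and 0.0555). Against –dox, 9 of the 41 genes were called higher in MBNL2, among them Irf7 (log2 2.07, adjusted p = 0.00967), Isg15 and Usp18, and 0 were called lower. Of all genes, 2.13% were called higher and 1.34% lower in that comparison. None of 14 antigen presentation genes was called against +dox, with a median of -0.96, all 14 below 0 and 0 without overlap. B2m, the light chain of class I molecules, was at 345, 156 and 869 CPM in +dox and 185, 184 and 295 CPM in MBNL2.

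Genes of the extracellular matrix and of TGF-beta signalling leaned upward. Of 28 tested, 2 were called higher and 0 lower, beside 0.77% and 0.749% of all genes. The median was 0.51, with 27 of 28 positive and 7 without overlap, a share of 7 in 28 that is close to the 27.8% of all genes. Tgfb1, the growth factor that drives fibroblast activation, was at 13.1, 13.1 and 10.6 CPM in +dox and 22.8, 18.3 and 16.9 CPM in MBNL2 (log2 0.65 ± 0.14, adjusted p = 0.00393), and Mmp2, a gelatinase, at 79, 86.9 and 57.9 against 147, 107 and 96.3 CPM (log2 0.64 ± 0.17, adjusted p = 0.0189). In both genes all MBNL2 libraries lay above all +dox libraries. Both calls were lost without +dox replicate 3 and without MBNL2 replicate 1. Col1a1, of type I collagen, was at 131, 129 and 62.3 CPM in +dox and 240, 163 and 140 CPM in MBNL2 (adjusted p = 0.13), but was called higher than in –dox (70.4, 88.1 and 113 CPM, log2 1.00, adjusted p = 0.0337). The sum over the list was 2740, 2480 and 1590 CPM in +dox and 4040, 3040 and 2520 CPM in MBNL2, so that MBNL2 replicate 1 was the highest and +dox replicate 3 the lowest, with 1 overlap.

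The markers of fibroblasts (Pdgfra, Tcf21, Dcn, Lum, Dpt and Col1a1) share Col1a1 with the matrix list. Of the 6, 0 were called and 6 had positive log2 fold changes, and their sum was 1120, 1230 and 1010 CPM in +dox and 1610, 1280 and 1200 CPM in MBNL2. Pdgfra, the receptor that marks cardiac fibroblasts, was at 53.2, 54.4 and 57.9 against 91.7, 65.7 and 71.5 CPM and passed the test below the fold (log2 0.47, adjusted p = 0.00315). The sum of 6 endothelial markers was 603, 607 and 581 CPM in +dox and 707, 717 and 642 CPM in MBNL2, without overlap and with 0 called. Their part in the matrix values was not tested. Sums of 8 macrophage markers were 161 to 220 CPM in +dox and 206 to 221 CPM in MBNL2. Smooth muscle, B cell, red blood cell, fat, mesothelial and Schwann cell markers each had 0 called genes, the neutrophil markers summed to 0.421, 0.214 and 0.246 CPM in +dox and 1.29, 1.08 and 0.487 CPM in MBNL2 with 0 of 2 called, and 0 lung markers were expressed enough to be tested.

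Stress and clock genes held few calls. Of 19 tested genes of the ATF4 stress response 0 were called (median 0.16), as were 0 of 10 heat shock genes (median 0.27). Bhlhe40, a repressor in the circadian clock, was the 1 call of 16 clock genes, beside 1.52% of all genes. It was at 45.9, 44.6 and 49.5 CPM in +dox and 93.4, 62.6 and 62.6 CPM in MBNL2 (log2 0.64, adjusted p = 0.0229). The groups of Bhlhe40 did not overlap, and its call was lost in 8 of 15 alternatives.

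**Figure D4:**
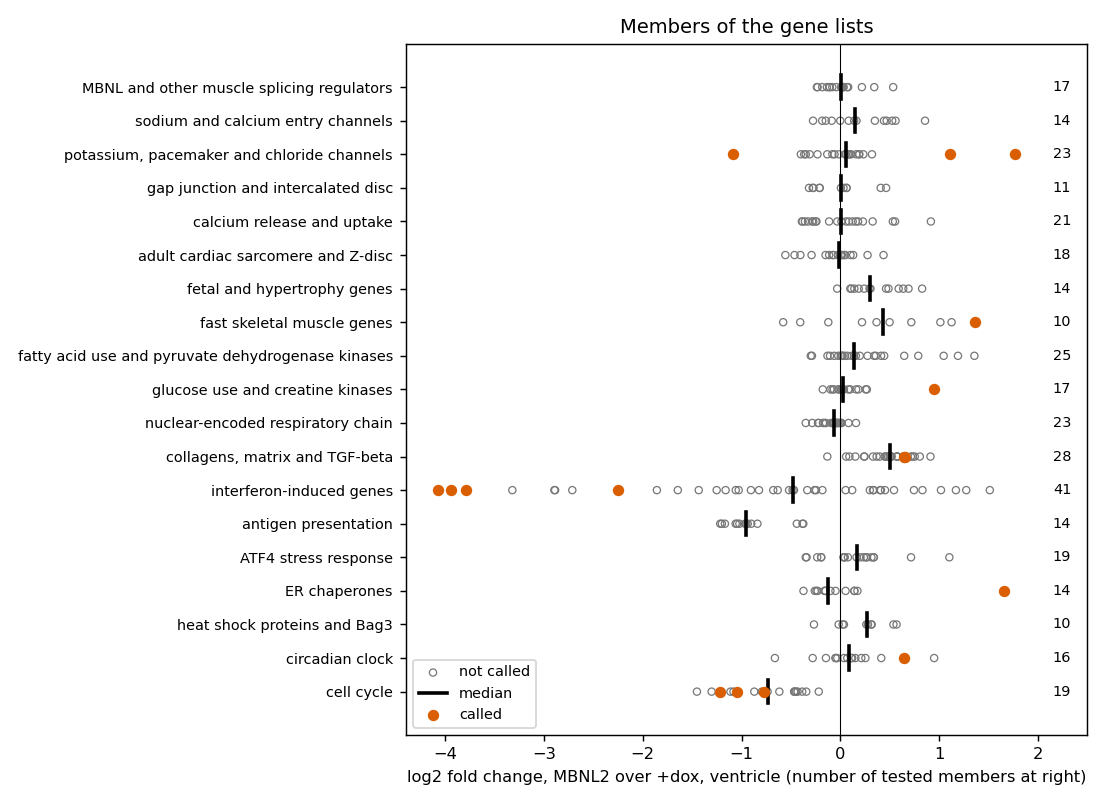
Each row is a gene list and each point a tested member, with the log2 fold change of MBNL2 over +dox in the ventricle on the x axis. Filled points were called, vertical bars are list medians and the number of tested members stands at the right. The medians of the cell cycle, antigen presentation and interferon-induced lists are -0.74, -0.96 and -0.48, and that of the matrix list is 0.51.

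The direct comparison with –dox ventricles set MBNL2 hearts against hearts that never expressed the repeat RNA and had neither dox nor a vector. Effects of the repeats, of dox and of the vector cannot be told apart in it. This comparison called 668 of 19231 genes (3.47%), 410 higher and 258 lower in MBNL2, where –dox against +dox called 1461 (7.6%). The comparisons share libraries, so the values are given side by side only. Rimkla, which makes the neuropeptide N-acetylaspartylglutamate, was at 17.2, 17.9 and 22 CPM in +dox, 5.71, 9.53 and 10.8 CPM in MBNL2 and 0.799, 0.979 and 1.23 CPM in –dox. The 3 groups of Rimkla did not overlap, with a log2 difference of 3.12 to –dox (adjusted p = 3.24e-09) and of -1.13 to +dox (adjusted p = 0.00251). Adgra1 (log2 3.07) and Zbp1, a sensor of Z-form nucleic acids (2.97), were the next largest rises over –dox. Ano5, a muscle membrane protein mutated in limb-girdle dystrophy, was at 0.102, 0.226 and 0.0461 CPM in +dox, 0.224, 0.342 and 0.289 CPM in MBNL2 and 4.38, 4.42 and 2.33 CPM in –dox (log2 -3.70 against –dox, adjusted p = 0.0001). Ano5 overlapped between MBNL2 and +dox. Lad1 (-2.32) and Pde11a (-2.17) were the next largest falls against –dox. Kcnip2, the subunit that carries the fast transient outward current with Kv4 channels, was at 32.3, 34.1 and 53.6 CPM in +dox, 33.3, 37.7 and 38.3 CPM in MBNL2 and 88.3, 80.2 and 99.2 CPM in –dox (log2 -1.29 against –dox, adjusted p = 4.6e-05). MBNL2 and +dox overlapped for Kcnip2 (adjusted p = 0.741).

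MBNL2 and MBNL1 ventricles differed little by this test: 3 of 19231 genes (0.0156%) were called, all lower in MBNL2, while 2004 genes had an unadjusted p below 0.05, and DESeq2 called 28, of which 18 were higher in MBNL2. Cdnf was lower in MBNL2, as given above (log2 -1.69, adjusted p = 0.000505). Kbtbd12, a muscle-expressed kelch repeat protein gene, was at 48.7, 40.6 and 40 CPM in MBNL2 and 73, 65.3 and 57.5 CPM in MBNL1, without overlap (log2 -0.60, adjusted p = 0.0467). The +dox libraries of Kbtbd12 were at 37.6, 35.3 and 40.1 CPM, with which MBNL2 overlapped, and the –dox libraries were at 107, 104 and 93.8 CPM. MBNL1 replicate 1 had 16885 genes above 0 where its mates had 22581 and 22979. Without that library edgeR called 1 gene, and 776 had an unadjusted p below 0.05. Without MBNL1 replicate 3, 53 genes were called, 37 of them higher in MBNL2. A small number of calls does not show that the vectors acted alike.

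In the atria the same vector and the same test called 1 of 19231 genes (0.0052%), and 831 had an unadjusted p below 0.05. This was Ckmt2, at 242, 205 and 159 CPM in atrial +dox and 485, 393 and 386 CPM in atrial MBNL2 libraries (log2 1.06, adjusted p = 3.44e-06), a change whose difference from the ventricle was -0.12 ± 0.16 (adjusted p = 0.859). An interaction term compared the ventricular with the atrial change and called 7 genes (0.0364%), and 80 with the animal as a replicate block. Pttg1 was at 2.43, 1.86 and 1.6 CPM in atrial +dox and 2.87, 2.58 and 1.79 CPM in atrial MBNL2, overlapping where the ventricular groups did not (difference of log2 fold changes -1.94 ± 0.32, adjusted p = 0.0194). With the animal as a replicate block the Pttg1 difference was -1.94 ± 0.24 (adjusted p = 0.00148). For Cdnf, Coq8a and Kcna4 the atrial log2 changes were 0.83, 0.48 and -0.16. Without the block their differences from the ventricle did not pass (adjusted p = 0.327, 0.18 and 0.163). With the animal as a replicate block, Coq8a (difference 0.94 ± 0.20, adjusted p = 0.0446) and Kcna4 (-0.92 ± 0.19, adjusted p = 0.0269) were called and Cdnf (0.80 ± 0.28, adjusted p = 0.17) and Ckmt2 (-0.13 ± 0.16, adjusted p = 0.778) were not.

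Gene totals do not show which transcripts of a gene were made. The ratio of a gene's expected count to its TPM is proportional to the effective length that RSEM assigned to it, and it shifts when the mix of long and short transcripts shifts. Among 8890 genes with enough reads, 25 (0.281%) shifted by at least 5% between MBNL2 and +dox ventricles at an adjusted p below 0.05 in limma, 12 (0.135%) longer and 13 (0.146%) shorter in MBNL2, where –dox against +dox gave 114 (1.28%). The readout depends on the annotated transcripts and does not name the exon. With only the 6 libraries in the limma fit 0 genes were called, and 646 had an unadjusted p below 0.05.

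Mbnl2 itself had the greatest shortening. Its effective length was 99.3, 98.4 and 102% of the +dox mean in the +dox libraries and 72.6, 77.2 and 75.6% in MBNL2, while –dox ventricles had 96.5, 99.1 and 91.0%. The MBNL2 libraries were below all libraries of both other groups (-24.9% against +dox, adjusted p = 0.000571, and -21.3% against –dox, adjusted p = 0.00106). Annotated coding transcripts of Mbnl2 (chr14:120275669-120431697, plus strand) run from 758 to 4552 bases. Mbnl1 was not called against +dox (-0.625%, adjusted p = 0.617), and it gave the only call against MBNL1 ventricles (0.0112%), where its length in MBNL2 was 6.7% longer (adjusted p = 1.96e-05).

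Asph shortened by 13.1% (adjusted p = 0.00229), with 80.6, 89 and 91.5% in the MBNL2 libraries against 98.4, 100 and 101% in +dox and 66.2, 63.4 and 66.5% in –dox. MBNL2 lay between the other groups without overlap, and remained 33% longer than –dox (adjusted p = 5.07e-08). Speg, a kinase of the junctional membrane and the Z-disc, lengthened by 19% (adjusted p = 0.00773), from 101, 93.6 and 106% in +dox to 122, 119 and 115% in MBNL2, with 142, 137 and 139% in –dox. It also lay between the other groups without overlap and was 14.9% shorter than in –dox (adjusted p = 0.00888). Coding transcripts of Asph run from 457 to 6694 bases and those of Speg from 833 to 10801 bases. Cacna1c, the pore of the L-type calcium channel, lengthened by 10.6% (adjusted p = 0.028), with 108, 111 and 113% in MBNL2 and 114, 108 and 115% in –dox, which overlapped.

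Smarca2, a chromatin remodelling ATPase, lengthened by 19.6%, Pts, of tetrahydrobiopterin synthesis, by 13.7%, Nsmce2, a SUMO ligase, by 13.2% and Yif1a, of vesicle transport, by 9.16%. Arhgef17, Pde4b, Tcf7l2 and Eef1d shortened by 10.8, 9.84, 9.49 and 9.26%. For Pde4b, a phosphodiesterase that limits cAMP in cardiomyocytes, MBNL2 libraries were at 89.7, 89.2 and 91.5% and –dox libraries at 96.3, 101 and 101%, so that MBNL2 was below –dox as well (-9.56%, adjusted p = 0.048). Of the genes whose splicing the study describes, Ldb3 (-9.24%, adjusted p = 0.127), Kcnip2 (12.2%, adjusted p = 0.459) and Ryr2 (1.23%, adjusted p = 0.13) were not called. A change of short exons may leave the effective length nearly as it was, so this readout says little about them. The direct comparison with –dox called 27 genes (0.304%), and the test of a difference between ventricle and atria called 0 (0.0%) in limma, with 312 genes at an unadjusted p below 0.05.

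**Figure D5:**
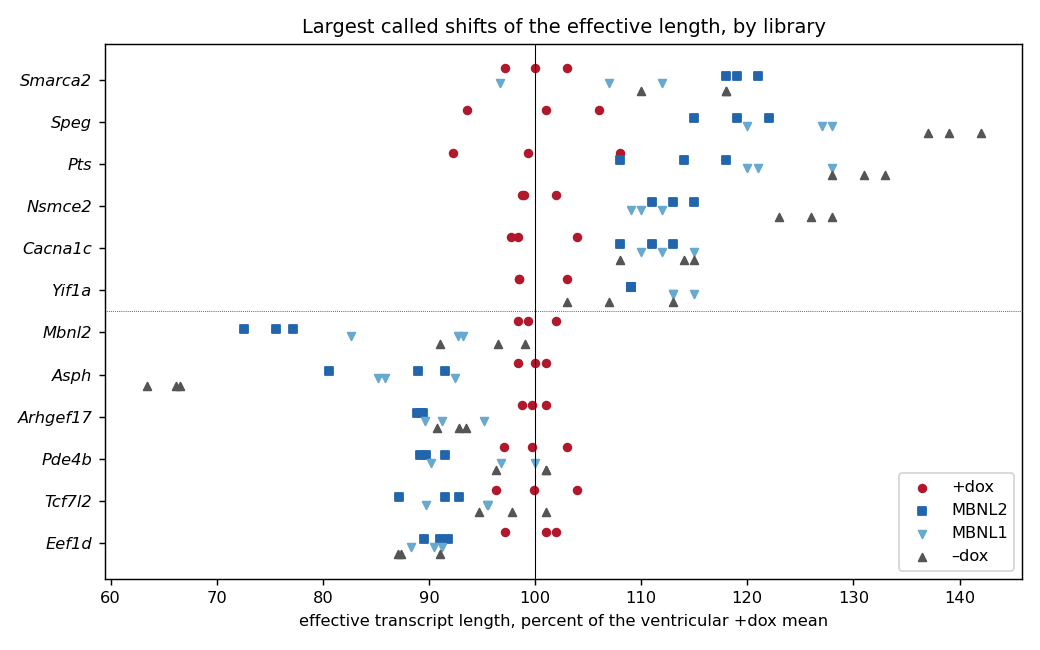
Points are single ventricular libraries of 4 cohorts, with the effective transcript length as a percent of the ventricular +dox mean on the x axis, for the 6 largest called lengthenings (above the dotted line) and shortenings (below it). The 3 MBNL2 libraries of Mbnl2 lie between 72.6 and 77.2%, and for Speg and Asph the MBNL2 points lie between +dox and –dox.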

How the data were processed

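Poly(A) RNA of ventricle and atria was sequenced as stranded TruSeq libraries (paired reads of 150 bases), and the authors aligned reads with STAR 2.7.10b to mm10 (GENCODE M25) and quantified genes with RSEM 1.3.1, per the labels and the study's methods. The authors deposited 1 table of expected counts and 1 of TPM per gene symbol. Whether RSEM was run with strand is not given in the sources used here. Gene positions and overlaps were read from GENCODE M21 (53292 of 55291 symbols matched).

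Expected counts were rounded, and 19231 symbols that passed filterByExpr were fitted over all 36 libraries in 12 groups with edgeR 4.0.16 (R 4.3.3; TMM, robust quasi-likelihood). Adjusted p-values are Benjamini-Hochberg over all genes tested, two-sided. Fold changes and CPM rest on TMM and not on TPM, since the median log2 TPM ratio of MBNL2 over +dox was 0.11. Effective length was the log2 ratio of expected count to TPM, centred on each library's median, for 8890 genes with a mean TPM of at least 5, at least 1 TPM and 50 counts in every library, tested with limma 3.58.1. Both were also run on simulated data whose spread was taken from the real libraries. DESeq2 1.42.0 was an alternative. The study's methods describe the 3 samples of a group as separate animals, each giving ventricle and atria.

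Named genes were the members of the gene lists, the 10 largest rises and 10 largest falls among called genes with a mean of at least 1 CPM and no overlap, 3 each way for other comparisons, 6 each way for effective length, and the MBNL genes and Dmpk. Some genes that this rule takes in are not reported here. The members and lists were chosen with earlier results of these data known. Replicate numbers did not pair animals of +dox with animals of MBNL2. Deviations of same-numbered ventricles correlated at 0.108, -0.122 and 0.252, the last for replicate 3, which shares library set and sex. Those of differently numbered ventricles correlated at -0.29 to 0.219. Replicate numbers did pair ventricle with atria, which come from the same animals (0.304 to 0.508 in +dox and 0.291 to 0.456 in MBNL2). For the tissue difference the blocked value is therefore given for Ckmt2, Cdnf, Coq8a, Kcna4 and Pttg1, and other genes have the unblocked value only.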

Additional observations from a re-analysis of the deposited data

Results flagged for a closer look

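The change with MBNL2 differed between ventricle and atria for 7 genes by the test of the difference itself. With the animal as a replicate block 80 were called, all 7 among them. Of the 7, 5 had a mean of at least 1 CPM, and their values below are without the block unless stated. Smtnl2, a smoothelin-like muscle protein gene, was at 20.6, 22.8 and 15 CPM in ventricular +dox and 23.2, 27.5 and 31.4 CPM in ventricular MBNL2, but at 69.1, 68.9 and 66.6 CPM in atrial +dox and 40.6, 62.6 and 53.5 CPM in atrial MBNL2 (difference of log2 fold changes 0.87 ± 0.17, adjusted p = 0.0486). Emilin2, an elastic fibre glycoprotein gene, differed by 0.70 (adjusted p = 0.0486), with a ventricular rise from 12.4, 12.6 and 14.2 to 17.3, 18 and 19.3 CPM. Pttg1 differed by -1.94 (adjusted p = 0.0194), and by -1.94 ± 0.24 with the animal as a replicate block (adjusted p = 0.00148).

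Lsm3, of the RNA-binding ring of the spliceosome, was at 26.4, 23.8 and 22.1 CPM in ventricular +dox and 15.1, 16 and 14.3 CPM in ventricular MBNL2, and at 14.8, 13.1 and 11.9 against 14.4, 15.8 and 12.3 CPM in the atria (difference -0.77, adjusted p = 0.0486). Atpif1, the inhibitor of the mitochondrial ATP synthase, was at 63, 62.6 and 65.8 against 39, 44.9 and 43 CPM in the ventricle and at 48, 41.9 and 38.3 against 47.5, 46.2 and 39.3 CPM in the atria (difference -0.64, adjusted p = 0.0486). In both genes the ventricular groups did not overlap and the atrial groups did.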

How the results depend on the processing

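Against +dox, the 292 calls became 434 with DESeq2, 303 with RLE scaling, 216 with no filter on low counts, 369 with the library set as a term and 392 with voom library weights, but 1428 with no fold change cutoff, 127 with only the libraries compared and 95 with those and the replicate block. The replicate block over all libraries gave 314. Leaving out 1 library gave 105 to 408. Against –dox (668 calls) leaving out 1 library gave 424 to 685, DESeq2 807, the library set 769, the replicate block 714, no filter 535 and no fold change cutoff 2059. Against MBNL1 (3 calls) leaving out 1 library gave 1 to 53, DESeq2 28, no filter 5, the library set 9 (6 higher in MBNL2), and edgeR with only the libraries compared 0, where 694 genes had an unadjusted p below 0.05. The tissue difference (7 calls) ranged from 0 to 11 when 1 library was left out, with 64 in DESeq2, 33 with the library set, 13 with the replicate number as a replicate block, 80 with the animal as a replicate block and 1 with only the libraries compared. The 25 effective length shifts ranged from 12 to 51 when 1 library was left out, and became 0 with only the libraries compared in limma, where 646 genes had an unadjusted p below 0.05.

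Over 43 genes named against +dox, 490 of 645 values kept their call or lack of it, 145 lost a call and 0 reversed. 0 values reversed in the other comparisons and in effective length, where 46 of 130 lost their call. Replicate numbers pair no +dox sample with an MBNL2 sample, so calls lost under that block are not read as weaker effects. The cause of these shifts was not tested.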

Other observations

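Fgfr1, Eng and Nos3 were chosen among the rises after their values were seen, and 0 of 6 endothelial markers were called. Fgfr1, a fibroblast growth factor receptor, was at 33.9, 39.7 and 27.8 CPM in +dox and 60.4, 45.1 and 52.1 CPM in MBNL2 (log2 0.63 ± 0.10, adjusted p = 0.000478), and was also higher than in –dox (log2 0.55, adjusted p = 0.000521). Eng, the endothelial co-receptor of TGF-beta, was at 121, 134 and 107 against 206, 171 and 178 CPM (adjusted p = 0.00304), and Nos3, the endothelial nitric oxide synthase, at 19.6, 20.9 and 16.9 against 31.3, 28.3 and 29.9 CPM (adjusted p = 0.0197). In all 3 genes the groups did not overlap.

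Shmt1, which passes 1-carbon units from serine to folate, was also chosen after its values were seen. It was at 39.5, 41.8 and 41.3 CPM in +dox, 12.3, 23.5 and 17 CPM in MBNL2 and 8.89, 6.78 and 7.48 CPM in –dox. The 3 groups did not overlap, and Shmt1 fell by 1.21 ± 0.19 on the log2 scale against +dox (adjusted p = 0.000409).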
